A study of Homo sapiens with 9 samples.

Results

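The response to the androgen dihydrotestosterone (DHT) was described in fluorescence-sorted LNCaP cells that carried a transfected shRNA vector, across all genes named by a single symbol and on both the rising and the falling side. The arrays were chosen by their labels and make up 4 of the 9 in the series. LNCaP is an established line from a human prostate cancer metastasis that depends on androgen for growth. The study asked how topoisomerase II takes part in the response to androgen, and its other arrays, which tested inhibitors in untransfected cells, were not used here.

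All 4 groups were LNCaP cells transfected with a vector that makes green fluorescent protein (GFP) together with an shRNA. The vector was either sh-control or sh-TOP2B, the latter directed against the gene of topoisomerase II beta. After transfection every group was deprived of androgen for 48 h in medium with 5% charcoal-stripped serum, then given vehicle or 100 nM DHT for 16 h. Fluorescent cells were then sorted out, and each group was measured on 1 Affymetrix U133 Plus 2.0 array. Only transfected cells were thus measured, all cells came from a single line, and no group was free of vector. DHT was set against vehicle within sh-control cells and within sh-TOP2B cells, which gave 2 pairs that were treated as 2 replicates. Nothing in the labels says that the pairs came from separate cultures on separate days, so the p-values speak only for the spread among these 4 arrays, and that spread includes any true effect of the TOP2B shRNA on the response. In RNA pooled from many sorted cells, fewer cells of a type and less RNA per cell cannot be told apart.

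Androgen acts through the androgen receptor, a nuclear receptor that binds the hormone in the cytoplasm, moves to the nucleus and binds DNA at androgen response elements, inverted repeats of a short half-site. In the luminal cells of the prostate the receptor drives genes of secreted products such as prostate-specific antigen, and in prostate cancer cells also genes of lipid synthesis, protein secretion and cell division. It lowers other genes, among them genes of steroid metabolism and of neural or developmental function.

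Values are log2 RMA values (RMA is a summary of the probes of each probe set after quantile normalization across arrays), differences are DHT minus vehicle on that log2 scale, and errors are limma standard errors (SE) over the 2 pairs. A level under the median of its array, which lay between 5.68 and 5.72, is called dim. Where a dim level enters a difference, the difference was recomputed with the array median in place of that level and is printed as "at least"; any p-value next to it still comes from the deposited levels. Levels in the 4 arrays are given in the order sh-control vehicle, sh-control DHT, sh-TOP2B vehicle and sh-TOP2B DHT.

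The gene targeted by the shRNA, TOP2B, was at 10.54, 10.87, 10.09 and 10.01 in the 4 arrays. The sh-TOP2B arrays were the lower in both conditions, with 73.0% of the sh-control level left with vehicle and 55.2% with DHT, by 1 probe set and 1 array a group. TOP2B did not pass the test for DHT (0.13 ± 0.10, limma adjusted p = 0.42), and neither did its relative TOP2A (0.19 ± 0.13, adjusted p = 0.328). Correlations between arrays lay between 0.981 and 0.990, and at most 1.66% of probe sets had equal values on any 2 arrays. The 3' minus 5' difference of the beta-actin control probe sets, a sign of RNA degradation, was 3.09, 2.67, 2.69 and 2.38, and that of GAPDH was 0.635, 0.519, 0.522 and 0.518. Both were lower with DHT than with vehicle in each pair, and their part in the differences below was not tested. Defining markers of other cell types were mostly dim on all 4 arrays: 3 of 4 measured basal markers, 5 of 9 stromal, 5 of 6 immune and 4 of 6 endothelial ones, with mean levels over each list of 4.37 to 6.03. The marker calls were the smooth muscle actin gene ACTA2 (-0.54 ± 0.16) and the endothelial gene VWF (-0.93 ± 0.21), both lower with DHT. VWF was not called by the median over probe sets (-0.54, limma adjusted p = 0.15), which takes in a second probe set that was dim on all 4 arrays.

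A large share of the tested genes was called for DHT, with the largest changes on the rising side. More genes were called lower than higher in the fit used, though not in every setting below. Of 11865 genes tested, 1226 (10.3%) were called higher and 1467 (12.4%) lower at a limma adjusted p under 0.05, and 4019 had an unadjusted p under 0.05. The split of the calls depends on the scaling and on the fit. By scaling, 45.5% of calls were higher on the deposited values and 60.2% after centring each array on 10 control genes, which moved the median of all genes from -0.03 to 0.03. The 2 pairs leave 1 residual degree of freedom. The number of calls was 792 without a trend of the spread on the mean level (420 higher and 372 lower). It was 1067 without the vector as a block (583 higher and 484 lower). Of 173 called genes that the naming rule picked, 80 lost their call without the trend, 58 without the block and 24 when the median over a gene's probe sets replaced its brightest one.

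The sizes were less even than the counts. Among called genes, rises of 0.5 or more numbered 672 and falls 675, those of 1 or more 227 and 159, of 2 or more 55 and 16, and of 3 or more 21 and 2. The largest rise was 6.94 and the largest fall -3.74. With dim levels raised to the median, 45 rises and 13 falls of at least 2 were left. The counts of at least 2 were 60 and 15 with control-gene centring and 54 and 16 without the trend.

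**Figure D1:**
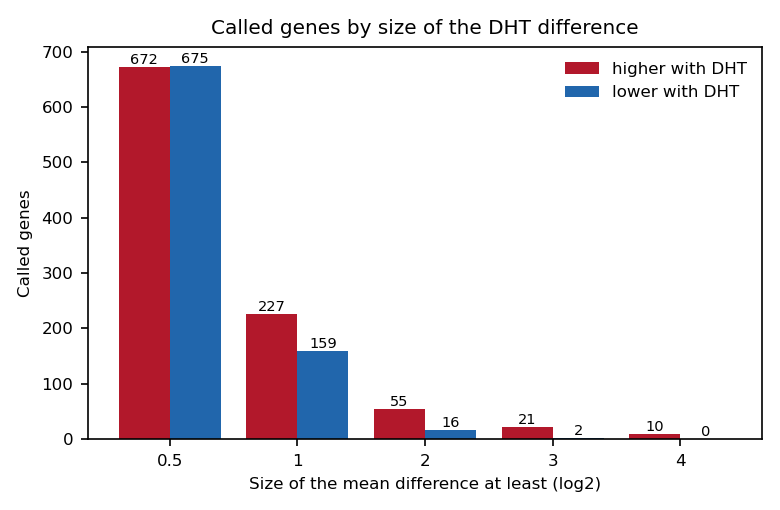
Bars give the number of called genes (vertical axis) whose mean DHT minus vehicle difference reaches each log2 size (horizontal axis), red for higher and blue for lower. The sides are close at 0.5 (672 and 675) and part at 2 (55 and 16).

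The 2 pairs gave the same sign for 8316 of the tested genes (70.1%), with 30.0% of tested genes positive and 40.1% negative in both. The test sets the mean of the 2 differences against a spread that includes their gap, so genes with opposite signs seldom pass. Of the 2693 called genes, 2692 had the same sign in both pairs, which is thus not a separate measure of agreement. The exception was CXCR4, a chemokine receptor gene, at 9.34, 11.10, 11.71 and 11.58, whose differences were 1.76 and -0.13 and whose adjusted p was 0.0496 in limma. A difference of at least 1 was reached in both pairs by 176 genes upward (1.48% of those tested) and 113 downward (0.952%), and in opposite directions by 2. In sh-control cells alone, 288 genes rose and 226 fell by that much, and in sh-TOP2B cells 235 and 186, each from 1 array against 1. Among the genes at or above 1 in both pairs, the median rise was 1.68 in sh-control and 1.52 in sh-TOP2B cells, and 126 of 176 had the larger rise in sh-control cells. On the falling side the medians were -1.45 and -1.36, and 69 of 113 had the larger fall in sh-control cells. Over all tested genes the differences were also wider in the sh-control pair, with a standard deviation of 0.49 against 0.45 in the sh-TOP2B pair. Whether the response differs between the vectors was not tested, because each pair has 1 array a group.

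**Figure D2:**
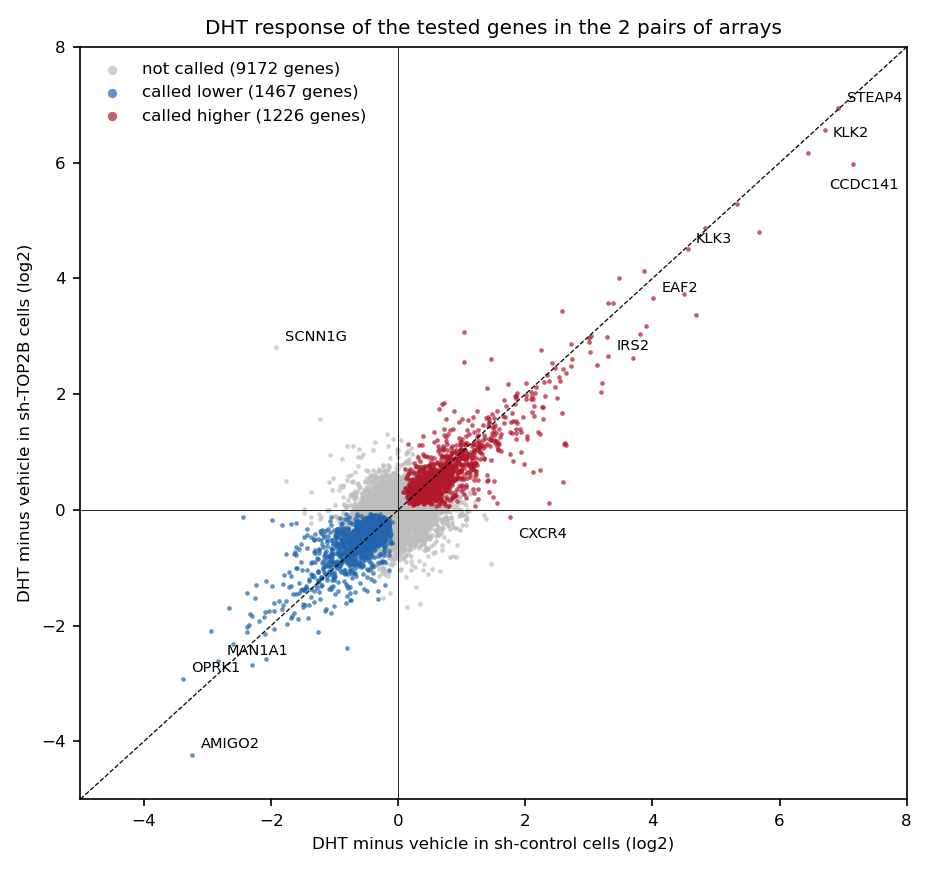
Each point is a tested gene, with its DHT minus vehicle log2 difference in sh-control cells on the horizontal axis and in sh-TOP2B cells on the vertical axis; red and blue mark genes called higher (1226) and lower (1467), and the dashed line marks equal differences. The far points lie near the line, while SCNN1G (-1.92 and 2.82) and CXCR4 (1.76 and -0.13) lie off it.

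Calls were more frequent among well-expressed genes. In 4 equal bins of mean level, from the lowest to the highest, 4.99%, 9.27%, 11.9% and 15.2% of genes were called higher, and 6.94%, 12.2%, 14.7% and 15.7% lower. Long non-coding RNAs leaned to the falling side, with 30 of 593 higher (5.06%) and 91 lower (15.3%), where protein-coding genes had 10.7% and 12.3%. For called genes with further probe sets, those agreed in direction in both pairs for 1108 of 1412 probe sets on the rising side (78.5%) and 1021 of 1417 on the falling side (72.1%). Only further probe sets with a mean level at or above the mean of the array medians were counted. Among such probe sets of genes not called, 29.7% were higher and 32.1% lower in both pairs. These shares do not take the direction of the brightest probe set into account.

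Among the 12 genes with the largest called rises were 2 kallikreins, a reductase, 3 carriers of amino acids, peptides and glucose, a transcription factor and a non-coding RNA. KLK3 encodes prostate-specific antigen, a secreted serine protease of the kallikrein family. Its levels were 9.13, 13.68, 9.13 and 13.63, so the vehicle arrays had nearly equal levels and the DHT arrays lay far above them. KLK3 rose 23.1-fold (4.53 ± 0.07, limma adjusted p = 1.79e-13), and its other probe sets gave 4.98 and 5.23. KLK2, the gene of a neighbouring kallikrein that can activate prostate-specific antigen, was at 5.50, 12.21, 5.64 and 12.20. It was dim with vehicle and far above the array median with DHT in both pairs, a rise of at least 6.50 (adjusted p = 7.99e-13).

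KLK3 and KLK2 are neighbours on chromosome 19 and rose together, so the bases before their starts are shown here. They are from RefSeq (GRCh38.p14), the 250 bases before the start of each gene, KLK3 at chr19:50854665-50854914, plus strand, and KLK2 at chr19:50873189-50873438, plus strand. Capitals mark the 2 half-sites of a match to the androgen response element, searched on both strands as GAACA, any 3 bases, TGTTC with at most 2 of the 10 letters different.
KLK3: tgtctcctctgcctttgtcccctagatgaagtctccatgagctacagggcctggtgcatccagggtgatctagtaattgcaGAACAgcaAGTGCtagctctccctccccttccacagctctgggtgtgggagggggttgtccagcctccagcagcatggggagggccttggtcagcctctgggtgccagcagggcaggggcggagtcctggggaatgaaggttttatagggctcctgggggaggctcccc
KLK2: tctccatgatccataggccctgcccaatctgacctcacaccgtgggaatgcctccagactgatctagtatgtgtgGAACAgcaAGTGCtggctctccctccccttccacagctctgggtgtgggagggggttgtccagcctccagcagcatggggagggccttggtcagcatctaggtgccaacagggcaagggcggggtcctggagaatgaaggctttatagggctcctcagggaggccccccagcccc
The match begins 169 bases before the start of KLK3 and 175 before that of KLK2, and each differs from the searched letters at 2 positions. From the match to the end of the window, 158 of 169 bases were identical between the genes (93.5%). Such a match is common: 7.39% of 35116 promoters in the RefSeq table and 5.16% of 14122 promoters of tested genes held one in the same window. Among promoters of genes at least 1 higher in both pairs it was 16 of 248 (6.45%), and of those at least 1 lower 5 of 165 (3.03%). A match is a description of letters and does not show that the receptor binds there.

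Next to the kallikreins stood STEAP4, a metal reductase gene, at 4.01, 10.94, 3.91 and 10.86. Dim in both vehicle arrays, it was at least 5.19 higher with DHT (limma adjusted p = 2.74e-11). EAF2, the gene of a factor that binds the elongation factor ELL, was above the array median throughout at 7.95, 11.95, 7.68 and 11.33. It rose 14.2-fold (3.83 ± 0.11, adjusted p = 1.03e-10). HPGD, whose product inactivates prostaglandins, was at 4.51, 10.20, 5.13 and 9.94, a rise of at least 4.36. SNAI2, a zinc-finger transcription factor gene known from epithelial-mesenchymal transition, was at 5.05, 10.38, 4.89 and 10.18, a rise of at least 4.57.

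The other genes with the largest rises were dim with vehicle in both pairs as well. Several encode carriers: SLC38A4 (an amino acid transporter) rose by at least 3.53, SLC15A2 (a peptide transporter) by at least 3.62 and SLC2A3 (a glucose transporter) by at least 2.47. CCDC141, a coiled-coil protein gene, rose by at least 4.52, AKAP12, which scaffolds protein kinase A, by at least 2.28, and the non-coding RNA gene LINC00844 by at least 2.78. Of all called genes, 31 were dim with vehicle in both pairs on the rising side, and 14 were dim with DHT in both pairs on the falling side.

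**Figure D3:**
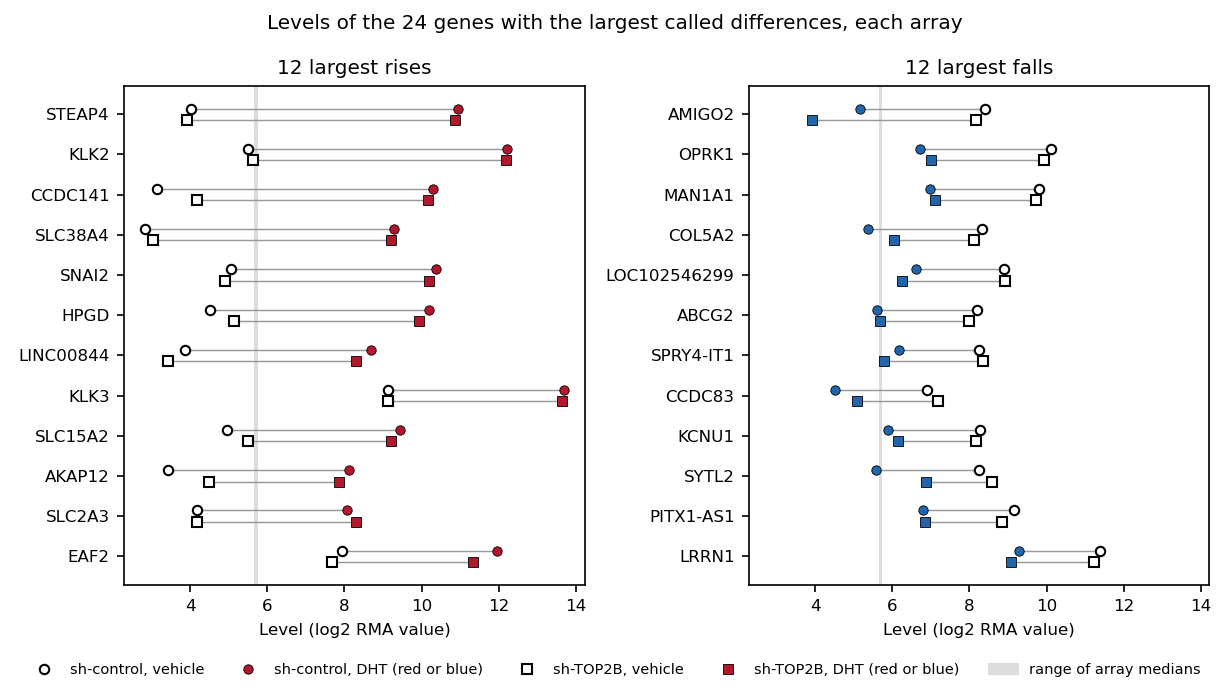
Levels (log2 RMA value, horizontal axis) of the 12 genes with the largest called rises (left) and the 12 with the largest called falls (right) in each of the 4 arrays; open symbols are vehicle, filled symbols DHT, circles sh-control, squares sh-TOP2B, and the grey band spans the array medians (5.68 to 5.72). In every gene shown, vehicle and DHT arrays do not overlap, and most rises start below the band, KLK3 and EAF2 being the exceptions.

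Among falls, AMIGO2, a cell adhesion membrane protein gene, was at 8.39, 5.15, 8.17 and 3.93. It was dim in both DHT arrays and fell by at least 2.58 on the log2 scale (at least 5.96-fold lower, limma adjusted p = 4.35e-07). OPRK1, the gene of the kappa opioid receptor, was at 10.11, 6.72, 9.93 and 7.01 and fell 8.9-fold (-3.15 ± 0.15, adjusted p = 8.31e-09). MAN1A1, a Golgi mannosidase gene that trims N-glycans, was at 9.81, 6.99, 9.74 and 7.12 and fell 6.6-fold (-2.72 ± 0.14). LRRN1, a leucine-rich repeat membrane protein gene, stayed well above background at 11.39, 9.29, 11.22 and 9.07 and fell 4.37-fold (-2.13 ± 0.09). No vehicle array overlapped a DHT array in any of these 4 genes.

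Other large falls were in ABCG2, a drug efflux transporter gene (at least 2.40 lower), COL5A2, a fibrillar collagen gene (at least 2.37 lower), SYTL2, whose product binds the vesicle GTPase Rab27 (at least 2.14 lower), and CCDC83 (at least 1.34 lower). KCNU1, a potassium channel gene, had a difference of -2.20 ± 0.19. Non-coding or uncharacterised loci completed the set, SPRY4-IT1 (-2.32 ± 0.20), PITX1-AS1 (-2.17 ± 0.16) and LOC102546299 (-2.49 ± 0.17).

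The list of genes known to be induced by androgen was almost wholly on the rising side. Of 51 tested members 45 rose and 2 fell, with a median of 1.59 against -0.03 over all tested genes, and without the trend 42 rose. The list was compiled from genes reported in prostate cells, including this line, so its direction is not independent evidence. TMPRSS2, a membrane serine protease gene, was at 9.28, 11.71, 9.14 and 11.68 and rose 5.58-fold (2.48 ± 0.08, limma adjusted p = 4.48e-10). FKBP5, a co-chaperone of steroid receptors, was at 11.10, 13.20, 11.13 and 13.16 and rose 4.18-fold (2.06 ± 0.06, adjusted p = 1.04e-10). In both genes the DHT arrays were close to each other and far above vehicle. The members that fell were FOLH1B (-0.24 ± 0.05), which shares sequence with the prostate-specific membrane antigen gene FOLH1, and the tubulin gene TUBB2A (-0.32 ± 0.09). Both lost their call without the trend, with control-gene centring and without the vector block.

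The list of genes known to be repressed by androgen was mixed. Of 37 tested members 19 fell and 9 rose (14 and 5 without the trend), with a median of -0.32. Besides AMIGO2, OPRK1 and LRRN1, SI, which encodes the disaccharidase sucrase-isomaltase, was at 7.73, 5.78, 7.52 and 5.45 and fell by at least 1.88. Members that rose included GRIN3A, a glutamate receptor subunit gene (at least 2.29 higher), PAK1IP1 (1.51 ± 0.09), the transcription factor gene HES6 (1.40 ± 0.15) and the receptor phosphatase gene PTPRM (1.05 ± 0.12).

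Genes of luminal identity parted. Of 19 tested members 10 rose and 4 fell (10 and 2 without the trend), and the median was 0.69. It was -0.01, with 5 higher and 4 lower, when probe sets with the suffixes _s_at and _x_at were left out (called specific probe sets below). That setting drops every probe set of KLK3 and leaves KLK2 only a probe set that was dim on all 4 arrays. It thus also changes which members are counted. Beside the kallikreins and TMPRSS2, the cold-sensing ion channel gene TRPM8 was at 4.68, 7.67, 4.80 and 7.69, a rise of at least 1.98. ACP3, the gene of prostatic acid phosphatase, a secreted product like prostate-specific antigen, moved the other way at 9.17, 7.77, 9.89 and 8.24. It fell 2.88-fold (-1.53 ± 0.13, limma adjusted p = 1.8e-06), and its other probe sets were lower too, at -1.23 and -0.69. The lineage transcription factor genes HOXB13 (-0.50 ± 0.09) and GATA2 (-0.60 ± 0.08) fell, as did FOLH1 (-0.52 ± 0.07).

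The genes that make and clear active androgens were lower more often than higher: 6 of 13 tested fell and 4 rose, with a median of -0.20 that turned to 0.08 with a stricter filter on dim genes. AKR1C3, which can form testosterone from its precursor, was at 7.45, 5.57, 8.10 and 6.53, a fall of at least 1.67. Its relatives AKR1C2 (-0.95 ± 0.16) and AKR1C1 (-0.78 ± 0.18), which reduce DHT and other steroids, and UGT2B15 (-0.59 ± 0.06), which conjugates androgens for clearance, fell as well; the call of AKR1C1 was lost by the median over probe sets (-0.28, limma adjusted p = 0.486) and that of UGT2B15 with specific probe sets (-0.17, adjusted p = 0.718), and without the trend 1 member rose and 2 fell. UGT2B28 (0.58 ± 0.08), HSD17B11 (0.62 ± 0.09), HSD17B4 (0.38 ± 0.06) and the steroid sulfatase gene STS (0.36 ± 0.12) rose. Members of the AKR1C and UGT2B families are close paralogs that can share probes, so which member was measured is uncertain. Among receptors and cofactors of steroid hormones 1 of 16 tested rose (FKBP5) and 1 fell (GATA2).

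Among growth factor genes, transcripts of a receptor and an adaptor of the insulin-like growth factor (IGF) pathway were higher with DHT. IGF1R, the gene of the IGF receptor, was at 7.21, 10.33, 7.56 and 10.06 and rose 7.03-fold (2.81 ± 0.15, limma adjusted p = 2.61e-08). IRS2, an adaptor of that receptor, was at 7.88, 11.18, 8.33 and 10.99 and rose 7.9-fold (2.98 ± 0.14, adjusted p = 6.89e-09). For both genes the rise was larger in sh-control cells (3.13 and 3.31) than in sh-TOP2B cells (2.50 and 2.66), from 1 array a group. SGK1, a kinase gene downstream of phosphoinositide signalling, rose by 1.90 ± 0.10 and INPP4B, a phosphatase gene of the same pathway, by 1.48 ± 0.16. Of 24 tested members of the list 9 rose and 2 fell, the latter being PIK3R3 (-0.41 ± 0.06) and the hepatocyte growth factor receptor gene MET (at least 0.83 lower). Without the trend 6 rose and 0 fell in limma (9 and 2 at an unadjusted p under 0.05).

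Genes of DNA replication rose together, by less than the androgen targets. Of 38 tested members 26 rose and 0 fell in limma (32 and 0 at an unadjusted p under 0.05), 35 were positive and 0 negative in both pairs, and the median was 0.47. Without the trend 10 rose, and without the vector block 15. CDC6, which loads the replicative helicase, was at 7.77, 9.12, 7.47 and 8.76 and rose 2.49-fold (1.32 ± 0.14, limma adjusted p = 1.47e-05). CLSPN, the gene of the checkpoint adaptor claspin, was at 7.71, 9.22, 7.60 and 8.75 and rose by 1.34 ± 0.14. MCM10, a helicase cofactor gene, rose by 1.27 ± 0.14, and GINS4, a helicase subunit gene that was dim with vehicle, by at least 1.13. DHT arrays lay above vehicle arrays in both pairs for each of these.

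Regulators of the G1 phase included genes upstream of replication. E2F7 (1.25 ± 0.14) and E2F8 (at least 0.89 higher), repressors of the E2F family, rose, as did CDC25A, a phosphatase that activates cyclin-dependent kinases (8.35, 9.52, 8.36 and 9.46, a rise of 1.13 ± 0.12). CDK6, a kinase of the G1 phase, was at 5.49, 7.61, 6.17 and 8.13 and was at least 1.93 higher with DHT (limma adjusted p = 9.13e-06). CDKN1A, the gene of the kinase inhibitor p21, was the 1 member that fell, from 11.25 to 10.30 in sh-control cells and from 11.25 to 10.48 in sh-TOP2B cells (-0.86 ± 0.08, adjusted p = 5.89e-06). Of 25 tested members 10 rose (6 without the trend). Of 39 tested mitosis genes 15 rose and 1 fell, with a median of 0.26. The cytokinesis gene ANLN (0.74 ± 0.11), the kinetochore genes CENPE (0.73 ± 0.22) and NUF2 (0.62 ± 0.16) and the spindle checkpoint kinase gene TTK (0.60 ± 0.20) led them, while the securin gene PTTG1 was lower (-0.21 ± 0.07). The mitosis calls were the weaker set: 3 rose without the trend and 1 without the vector block.

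E2F factors are known regulators of replication genes, and 3 genes on the rising side with the letters of an E2F site just before their start are shown, chosen for those letters after their values were seen. The search took TTTGGCGC or TTTCGCGC on both strands in the same window, and capitals mark the matches. The stretches are from RefSeq GRCh38.p14, MCM6 at chr2:135876502-135876615, minus strand, MCM7 at chr7:100101398-100101426, minus strand, and E2F1 at chr20:33686386-33686425, minus strand.
MCM6: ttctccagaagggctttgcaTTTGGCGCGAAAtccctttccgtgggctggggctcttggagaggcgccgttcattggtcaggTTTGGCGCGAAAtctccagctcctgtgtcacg
MCM7: cggtcacgtggggggcgacgTTTCGCGCc
E2F1: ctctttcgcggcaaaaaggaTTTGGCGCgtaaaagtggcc
In MCM6 both searched words overlap at each of 2 places, 1 word on either strand. Of all 35116 promoters 0.968% held a match and of those of tested genes 1.48%. It was 6 of 42 promoters of tested replication genes (14.3%) and 3 of 28 promoters of those that rose (10.7%), so within the list the genes that rose did not have the larger share. MCM6 and MCM7, subunits of the replicative helicase, rose by 0.47 ± 0.09 and 0.44 ± 0.10, and E2F1 by 1.03 ± 0.13.

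Of 25 tested genes of repair of DNA breaks 6 rose and 2 fell, with a median of 0.13. Over all tested genes 10.3% rose and 12.4% fell. BLM (0.74 ± 0.21), MDC1 (0.73 ± 0.10), EXO1 (0.71 ± 0.14) and BRCA1 (0.63 ± 0.14), which act in resection, signalling and homologous recombination, rose, the last with 0.51 and adjusted p = 0.0769 in limma by the median over probe sets. Without the trend 2 members rose. The calls of CHEK1 (-0.37 ± 0.11) and TP53BP1 (-0.32 ± 0.10) as lower are uncertain: 3 other probe sets of CHEK1 were higher in both pairs, by 0.63, 0.51 and 0.71, and 1 of TP53BP1 by 0.28. Of 7 tested topoisomerase-related genes the single call was TDP1, an enzyme that removes trapped topoisomerase I (-0.36 ± 0.11). Its call was lost in 4 of 9 alternative settings, among them those without the trend and without the block.

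The secretory pathway carries prostatic products out of the cell. Of 33 tested genes of protein folding in the endoplasmic reticulum and the unfolded protein response 19 rose and 0 fell in limma (20 and 0 at an unadjusted p under 0.05), 29 were positive and 1 negative in both pairs, and the median was 0.26. ERN1, the gene of the stress sensor IRE1, was at 9.19, 10.35, 9.36 and 10.16 (0.98 ± 0.11, limma adjusted p = 2.69e-05). CREB3L4 (0.88 ± 0.09) and CREB3L2 (0.84 ± 0.11), membrane-bound transcription factors released by stress or secretory load, and DERL3 (at least 0.97 higher), a factor of protein degradation, rose too, though the last did not pass by the median over probe sets (0.13, adjusted p = 0.787) and neither did CREB3L2 (0.52, adjusted p = 0.124). XBP1, the transcript that IRE1 splices, did not pass (0.03 ± 0.08, adjusted p = 0.857, chosen after its value was seen). Without the trend 5 members of the list rose.

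HSPA5 (0.26 ± 0.06), the main chaperone of the endoplasmic reticulum, and CRELD2 (0.37 ± 0.08) rose and hold the letters of a stress response element before their start, CCAAT, any 9 bases, CCACG on either strand, for which they were chosen after their values were seen. The stretches shown are HSPA5 at chr9:125241371-125241429, minus strand, and CRELD2 at chr22:49918534-49918592, plus strand, with the match in capitals.
HSPA5: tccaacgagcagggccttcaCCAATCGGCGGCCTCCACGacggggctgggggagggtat
CRELD2: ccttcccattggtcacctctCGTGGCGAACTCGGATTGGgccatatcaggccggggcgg
The match was in 26 of all 35116 promoters (0.074%), in 9 of 42 promoters of the tested list (21.4%) and in 2 of 19 promoters of the members that rose (10.5%). Most listed genes with the match, among them XBP1, were therefore not among those called.

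Of 33 tested genes of vesicle transport 15 rose and 0 fell in limma (17 and 1 at an unadjusted p under 0.05), 25 were positive and 4 negative in both pairs, and the median was 0.19. Without the trend 3 rose, and without the vector block 8. RAB27A, a GTPase of secretory granules, was at 8.50, 9.93, 8.32 and 9.89 and rose 2.83-fold (1.50 ± 0.11, limma adjusted p = 7.34e-07), while SYTL2, an effector of it, was among the large falls above. RAB3B, a GTPase of regulated exocytosis, rose 2.69-fold (1.43 ± 0.13), and SEC24D, a coat protein of vesicles that leave the endoplasmic reticulum, by 0.98 ± 0.13.

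Of 28 tested glycosylation genes 9 were higher (10.3% of all tested genes were) and 4 lower, the latter close to the 12.4% over all tested genes. ST6GALNAC1, which adds sialic acid to O-glycans, was at 5.87, 9.06, 6.91 and 8.94 and rose 6.09-fold (2.61 ± 0.23, limma adjusted p = 2.92e-06). GCNT1 (1.14 ± 0.11), which branches O-glycans, and UAP1 (0.63 ± 0.05), which makes a sugar donor, rose as well. The genes that fell were FUT8 (-0.97 ± 0.13), GALNT3 (-0.90 ± 0.07), ST3GAL1 (-0.84 ± 0.08) and RPN2 (-0.18 ± 0.05), of which RPN2 did not pass by the median over probe sets (-0.15, adjusted p = 0.0584). Without the trend 3 rose and 3 fell. The sialyltransferases ST6GALNAC1 and ST3GAL1, which act on the same class of O-glycans, thus had opposite directions in both pairs.

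Of 27 tested genes of sterol and fatty acid synthesis 12 rose, 1 fell and 14 did not pass, with a median of 0.20. ACACA, whose product makes malonyl-CoA, was at 11.89, 12.52, 11.84 and 12.46 (0.63 ± 0.06, limma adjusted p = 5.1e-06). SCAP, the escort protein of the sterol-sensing transcription factors, rose by 0.87 ± 0.10 and the elongase gene ELOVL5 by 0.77 ± 0.07, while the sterol reductase gene TM7SF2 fell (-0.51 ± 0.09). FASN, fatty acid synthase, was called by its brightest probe set (0.60 ± 0.17) and did not pass by the median over probe sets (0.29, limma adjusted p = 0.289). Of 12 tested polyamine genes, both of synthesis and of breakdown, 6 rose and 1 fell. ODC1, the first enzyme of the pathway, was at 12.42, 12.91, 12.31 and 12.91 (0.55 ± 0.06), SMS, spermine synthase, rose by 0.52 ± 0.06, SAT1, which starts polyamine breakdown, by 0.39 ± 0.06, and the spermine oxidase gene SMOX fell (-0.75 ± 0.23). The difference of SMOX was -0.20 in sh-control and -1.31 in sh-TOP2B cells, and its call was kept in 2 of 6 alternative settings. In limma without the trend 3 of the lipid genes and 0 of the polyamine genes were called higher, with 12 and 4 at an unadjusted p under 0.05.

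Of 27 tested genes of glucose metabolism 6 rose (10.3% of all tested genes did) and 2 fell (12.4%), with a median of 0.03, and without the trend 2 rose and 0 fell in limma (7 and 1 at an unadjusted p under 0.05). CAMKK2, a kinase that activates AMP-activated kinase, was at 9.74, 10.90, 9.55 and 11.01 and rose 2.48-fold (1.31 ± 0.10, limma adjusted p = 5.77e-07). PFKFB2, which controls glycolytic flux, rose by 0.74 ± 0.14 and the enolase gene ENO2 fell (-0.53 ± 0.11). The hexokinase gene HK2 was called higher by its brightest probe set (0.70 ± 0.10), but another gave -0.57 and 0.86 in the pairs, and by the median over probe sets it did not pass (0.14, limma adjusted p = 0.776).

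The falling side held genes of inflammatory and interferon signalling. Of 38 tested interferon-response genes 20 fell and 1 rose, 34 were negative and 2 positive in both pairs, and the median was -0.29. PSMB9, an immunoproteasome subunit gene, was at 9.33, 8.02, 9.93 and 9.03 (-1.11 ± 0.13, limma adjusted p = 3.44e-05). IRF1, a transcription factor of the interferon response, was at 7.72, 6.81, 8.80 and 8.09 (-0.81 ± 0.15), and GBP2 fell by 0.80 on the log2 scale. B2M, the light chain of class I antigen presentation, was the member that rose (0.39 ± 0.05). Levels of several members stood higher in sh-TOP2B than in sh-control cells under both treatments; RSAD2, an antiviral enzyme gene, was at 8.52, 7.33, 12.77 and 12.43, and the gap between the vectors was far larger than its DHT differences of -1.19 and -0.34. The count of falls was 5 without the trend and 0 in limma without the vector block (4 at an unadjusted p under 0.05), where the gap between vectors enters the spread.

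TAP1 (-0.45 ± 0.10), a peptide transporter gene, IFIT5 (-0.64 ± 0.10) and IFITM1 (-0.75 ± 0.14) fell and carry the letters of an interferon-stimulated response element before their start, GAAA, any 2 bases, GAAA on either strand, for which they were chosen after their values were seen. The stretches shown are TAP1 at chr6:32853803-32853858, minus strand, IFIT5 at chr10:89414503-89414567, plus strand, and IFITM1 at chr11:313980-314029, plus strand, with matches in capitals.
TAP1: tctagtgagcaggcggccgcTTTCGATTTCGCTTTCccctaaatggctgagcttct
IFIT5: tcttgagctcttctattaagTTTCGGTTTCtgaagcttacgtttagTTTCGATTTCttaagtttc
IFITM1: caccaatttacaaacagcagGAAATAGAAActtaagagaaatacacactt
The match was in 3.02% of all promoters and 2.36% of those of tested genes. It was in 23 of 41 promoters of the tested list (56.1%), which was compiled from interferon-induced genes, and in 6 of 19 promoters of the members that fell (31.6%).

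NF-kB target and pathway genes had the lowest median of the lists shown in the plot of list members, -0.46 over 15 tested, with 8 lower and 1 higher. CCL2, the gene of a monocyte-attracting chemokine, was at 9.04, 6.79, 8.96 and 7.43 and fell 3.7-fold (-1.89 ± 0.18, limma adjusted p = 5.29e-06). NFKB1, a subunit of the factor itself, was at 9.45, 8.32, 9.65 and 8.44 (-1.17 ± 0.12, adjusted p = 9.72e-06). The chemokine gene CCL20 fell too (-1.04 ± 0.09), as did PTGS2, which makes prostaglandin precursors (at least 0.93 lower), and TNFAIP3, a feedback inhibitor, rose (0.51 ± 0.10). HPGD, which degrades prostaglandins, was among the largest rises above. Without the trend 6 members of the list fell.

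Immediate-early genes were divided, with 8 of 22 tested lower and 5 higher. EGR1, a zinc-finger transcription factor gene induced by growth signals, was at 11.15, 10.00, 11.72 and 10.62 (-1.12 ± 0.08, limma adjusted p = 2.71e-07). DUSP5 (-1.20 ± 0.21) and DUSP6 (at least 1.37 lower), phosphatases of the ERK kinases, fell, while CCN1 (0.64 ± 0.16) and KLF4 (0.41 ± 0.10) rose. By the median over probe sets the calls of ATF3 (-0.67 ± 0.10 to -0.47), KLF6 (0.61 ± 0.08 to 0.18) and FOSL2 (0.50 ± 0.08 to 0.22) were lost. Without the trend 3 members fell and 1 rose.

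Over all tested genes 12.4% fell and 10.3% rose, and stress and death pathways are set beside those shares. Of 28 tested p53 targets 9 fell and 4 rose (3 and 1 without the trend), with a median of -0.16; SESN1 was at 11.12, 10.33, 11.05 and 10.26 (-0.79 ± 0.08), and PLK2 rose (0.66 ± 0.10). Among apoptosis genes 4 of 27 tested fell and 2 rose, close to the shares over all genes. BMF, a death gene, was at least 0.98 lower, and the death receptor gene TNFRSF10B (0.39 ± 0.06) and BNIP3 (0.22 ± 0.06) rose. The calls of the other falls were lost by the median over probe sets. The survival gene BCL2 went from -0.97 ± 0.19 to -0.0408 (limma adjusted p = 0.932), the death gene HRK from -1.13 ± 0.20 to -0.48 (adjusted p = 0.168) and the death receptor gene FAS from -0.56 ± 0.16 to -0.46 (adjusted p = 0.103). The other probe sets of BCL2 had opposite signs in the pairs, whereas every probe set of FAS and most of those of HRK were lower in both. The fall of BMF was 1.83 in sh-control and 0.26 in sh-TOP2B cells. BMF has 1 probe set, so the median over probe sets could not change it. Its call was lost in 4 of 8 alternative settings, among them those without the trend and without the block. Heat shock genes had 6 of 16 lower and 0 higher in limma (6 and 2 at an unadjusted p under 0.05), and 2 lower without the trend. HSPA1L had the largest fall (-0.96 ± 0.17), which did not pass by the median over probe sets (-0.57, adjusted p = 0.0647). Autophagy and lysosome genes were lower in 7 of 28 and higher in 2, but without the trend 0 were lower in limma (6 at an unadjusted p under 0.05) and 1 higher. WIPI1 rose (1.16 ± 0.13). ATG7 was called lower by its brightest probe set (-0.62 ± 0.13), while its 3 other probe sets gave -0.0145, -0.0939 and -0.21. Respiratory chain genes were lower in 8 of 33 and higher in 1, the largest fall being that of NDUFA9 (-0.44 ± 0.07), and without the trend 0 were called in limma (5 lower and 0 higher at an unadjusted p under 0.05).

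**Figure D4:**
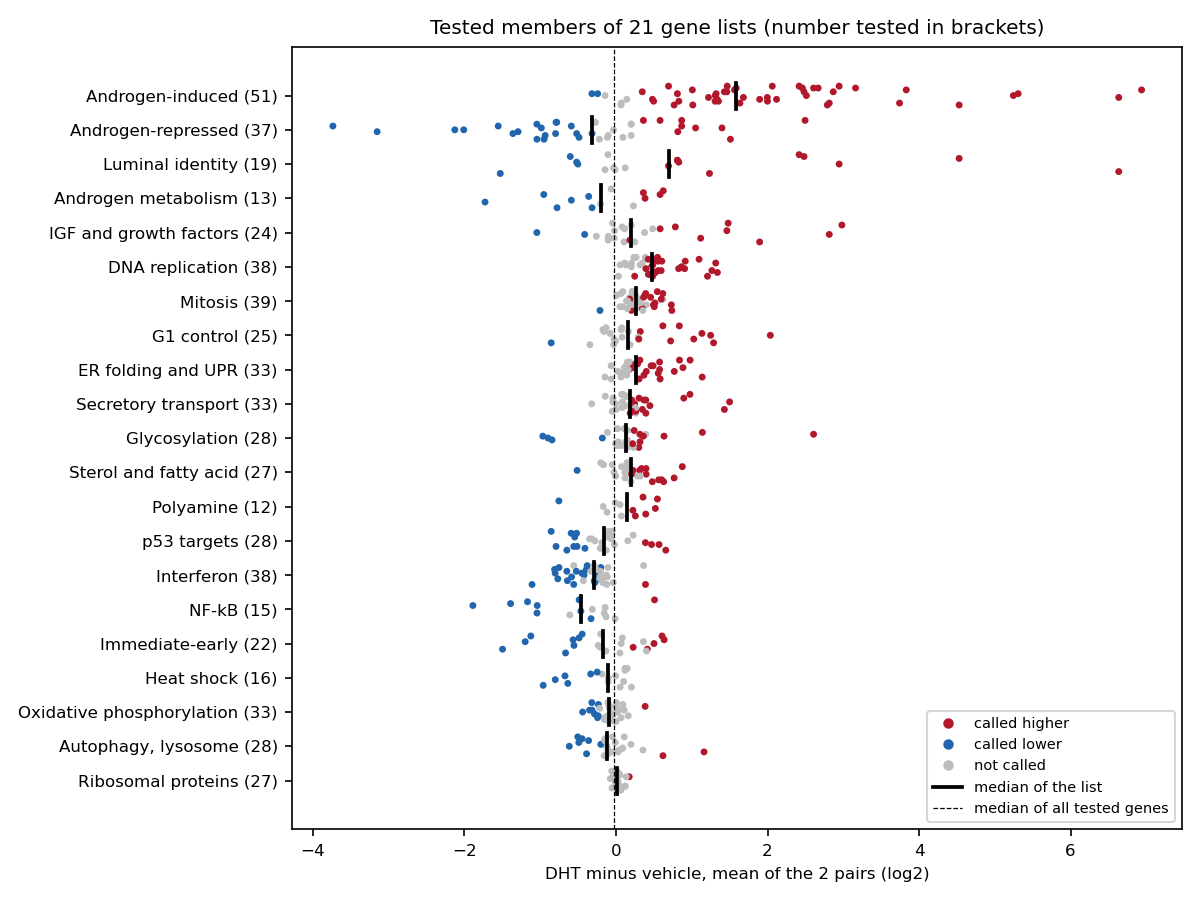
Each point is a tested gene of the list named on the vertical axis, placed at its mean DHT minus vehicle log2 difference over the 2 pairs (horizontal axis); red and blue mark calls, thick bars the median of each list and the dashed line the median of all tested genes (-0.03). Androgen-induced genes have a median of 1.59, DNA replication genes of 0.47, and NF-kB genes of -0.46.

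Ribosomal protein genes had few calls, 1 of 27 tested higher and 0 lower in limma (3 and 0 at an unadjusted p under 0.05) with a median of 0.01, and ribosome assembly genes had 1 call each way among 30. Adhesion and transition genes other than SNAI2 included rises of the transcription factor gene TWIST1 (1.39 ± 0.08, limma adjusted p = 3.56e-08) and the tight junction gene CLDN8 (1.11 ± 0.11) and a fall of the tight junction gene OCLN (-0.65 ± 0.09), with 8 of 22 tested higher (3 without the trend), 1 lower and a median of 0.01. Neural and neuroendocrine genes were dim on all arrays in 11 of 22 measured, and DDC, the gene of dopa decarboxylase, fell among the rest (12.80, 11.86, 12.80 and 11.84, -0.95 ± 0.06, adjusted p = 8.05e-08). DDC did not pass by the median over probe sets (-0.32, adjusted p = 0.0792), which takes in a second probe set that was dim on 3 arrays. Over all tested genes 12.4% were called lower and 10.3% higher. Amino acid response genes had 6 of 29 lower, led by the amino acid transporter gene SLC7A5 (-1.16 ± 0.21). The 3 called higher, led by the transporter gene SLC43A1 (1.09 ± 0.17), were close to the share over all genes. Without the trend 1 was lower and 1 higher. Aminoacyl-tRNA synthetase genes had 3 of 17 lower and 1 higher. Histone genes had 3 of 9 lower and 0 higher in limma (4 and 0 at an unadjusted p under 0.05), among paralogs that can share probes. Without the trend 0 histone genes were called lower in limma (0 at an unadjusted p under 0.05). It was 0 without the vector block (3 at an unadjusted p under 0.05) and 0 with control-gene centring.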

How the data were processed

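RNA from 4 groups of sorted LNCaP cells, 1 array each, was measured on Affymetrix U133 Plus 2.0 arrays. The authors deposited log2 expression values. RMA is named per the submitters' processing notes, and its version is not given in the sources used here. Quantile normalization, a step of RMA, makes arrays alike in distribution and so removes a shift that most genes share. Of 54675 probe sets, 41097 had 1 symbol in the platform annotation, 1801 several and 11777 none, and 41043 of the first matched a RefSeq record by gene ID. Each of the 19775 genes (10523 of them with more than 1 probe set) was read from its brightest probe set by the mean of the 4 arrays. Genes with a mean under the 40th percentile were left out, which left 11865.

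Differences were fitted in R 4.3.3 with limma 3.58.1 (a DHT term, the vector as a block that pairs the arrays, 1 residual degree of freedom and a trend that gave 11.8 prior degrees of freedom), with Benjamini-Hochberg adjustment at 0.05. With 1 array a group, the number of arrays limits the precision. The rule for named genes took the 12 largest called rises and falls, up to 4 called members of each list and direction, genes of topoisomerase II and of the androgen response (6 are given), and 6 genes with opposite signs in the pairs. Genes named outside this rule are marked in the text as picked after seeing their values. The members and gene lists were chosen with earlier results of these data known. Promoters are the RefSeq table's (GRCh38.p14), matched by gene ID for 9724 tested genes. Alternatives changed the spread model, filter, probe set rule, scaling, block and arrays used.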

Additional observations from a re-analysis of the deposited data

Results flagged for a closer look

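The genes below had opposite signs of DHT minus vehicle in the 2 pairs, so each gap rests on 1 array a group and the difference was not tested. SCNN1G, a subunit gene of the epithelial sodium channel, was at 6.08, 4.16, 6.36 and 9.18, a gap of 4.74 (sh-TOP2B minus sh-control). LKAAEAR1 had a gap of 2.80, AGT, the angiotensinogen gene, 2.27 and SMOC2 2.02, each higher with DHT in sh-TOP2B cells and lower in sh-control cells. In the other direction MEFV had a gap of -2.39 and VWDE of -1.96. Each of these but MEFV was dim on at least 1 array. Opposite signs in the pairs were also seen in list medians, which differed by 0.0907 for glucose metabolism, 0.15 for neural and neuroendocrine genes and -0.0927 for adhesion and transition genes, differences that were not tested either. These are not all: medians of other lists that were nearer 0, or that rest on few tested genes, had opposite signs as well, such as those of ribosome assembly (0.0082 in sh-control and -0.0452 in sh-TOP2B cells), the control genes (-0.0772 and 0.006) and the stromal markers (-0.26 and 0.05 over 4 tested genes).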

How the results depend on the processing

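Against 1226 higher and 1467 lower calls, the counts were 420 and 372 without the intensity trend, 583 and 484 without the vector block, and 934 lower with control-gene centring. The cause was not tested. Genes with a mean difference of at least 1 numbered 121 higher and 63 lower with a stricter filter on dim genes (fewer genes tested) and 256 lower with no filter (more genes tested). Without 1 array in turn (chosen after seeing the data), which also removes the pairing, 0 to 65 genes were called higher and 0 to 9 lower in limma, with 1899 to 2277 genes at an unadjusted p under 0.05, and 175 to 301 genes were lower by at least 1. The count of 65 was without the sh-TOP2B vehicle array, and the counts were 0 without either DHT array. Of 173 named called genes 77 kept their call in every setting that kept all arrays and still tested the gene. Not every setting tested every gene: TMPRSS2 was tested in 9, KLK2 in 8 and SLC38A4 in 6. The other 96 lost their call in at least 1 setting, of which 80 without the trend and 58 without the block. Sign changes: SQSTM1 was 0.0367 by the median over probe sets and with specific probe sets. CHEK1 was 0.67 and TARS1 -0.0091 by the median, and NOP16 was 0.0887 by the median and 0.54 with specific probe sets. CXCR4 was 1.76 in the sh-control and -0.13 in the sh-TOP2B pair alone. The value of SQSTM1 was that of 1 probe set, at 0.39 in sh-control and -0.32 in sh-TOP2B cells. Its other probe sets, some of them dim, were lower in both pairs. The cause of these sign changes was not tested. With a pair left out no residual degrees of freedom remained, so only values were recomputed there.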

Other observations

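Genes called in either direction lay in longer loci than the tested genes as a whole. By RefSeq gene span (GRCh38.p14), the median was 41.5 kb for 1225 genes called higher and 37.7 kb for 1466 called lower, against 28.6 kb for 11854 tested genes with a record. Calls also became more frequent with the mean level, and whether level and span act apart was not tested.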
